A study of Mus musculus with 2 samples.

Results

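The genes described are 10 ligands, receptors and a binding proteoglycan of the vascular endothelial growth factor (VEGF) and platelet-derived growth factor (PDGF) families, taken by gene symbol from the 55323 rows of an expression table. They are the VEGF ligands Vegfa, Vegfb and Vegfc, the VEGF receptors Flt1 and Kdr, the PDGF ligands Pdgfa and Pdgfb, the PDGF receptors Pdgfra and Pdgfrb, and Cspg4, the NG2 proteoglycan. Each symbol matched 1 row. The RNA came from TgS1, a line of mouse Schwann cells whose genotype is labelled TTR V30M tg, that is, transgenic for the V30M form of transthyretin. The cells came from long-term culture in a medium labelled SCM, which the labels do not spell out, or from long-term culture in DMEM, a basal culture medium. The line, the cell type and the transgene are the same in both groups, and the labels name neither the promoter of the transgene nor the time in culture. There was 1 library per medium and 1 cell line, so differences below rest on single libraries and carry no p-value.

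The SCM library held 36666676 reads assigned to rows of the table and the DMEM library 29085791. Levels are in FPKM, which are reads scaled by gene length and by the total of assigned reads. Intervals are exact at 95% and come from the whole reads behind each FPKM value, as Poisson intervals for a level and Clopper-Pearson intervals for a ratio of both libraries. They cover counting error only, and may be too narrow even for that, because copies made by amplification were not marked by molecular identifiers. A gene was counted as measured at 1 FPKM or more in at least 1 library. A call needed a 2-fold difference on the scale of log2((FPKM in SCM + 1) / (FPKM in DMEM + 1)), which understates the ratio of low genes.

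VEGF and PDGF are dimeric growth factors with a common cystine-knot fold, and both act through receptor tyrosine kinases. FLT1 binds VEGFA and VEGFB with high affinity but signals weakly and is also made as a soluble form, whereas KDR is the main signalling receptor for VEGFA in endothelial cells. PDGF-A chains act through PDGFRA and PDGF-B chains through both PDGF receptors, and PDGF-B dimers are a mitogen for cultured rat Schwann cells. In tissues PDGFRB and NG2 mark pericytes, and PDGFRA and NG2 mark oligodendrocyte precursors.

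Flt1 and Cspg4 stood above the 2-fold limit in SCM, and the other measured genes lay within 2-fold. In SCM the highest levels were those of Vegfb, Pdgfa and Vegfa, and the same ligands were the highest in DMEM. Pdgfrb was the PDGF receptor present, with few reads for Pdgfra in either medium, and Flt1 was the VEGF receptor present, with 0 reads for Kdr in both. The members under 1 FPKM in both libraries were Vegfc, Kdr and Pdgfra, so 7 of 10 were measured. Of these 7, 2 were higher and 0 lower, against 3.1% higher and 2.8% lower among all 12334 rows measured (2.48% and 1.44% among the 10081 protein-coding ones). The counting interval of the ratio excluded 1 for each of the 7, as it did for 65.5% of all rows measured. Cspg4 passed the filter through the SCM library alone, which fixes its direction. In bulk RNA, fewer cells of a type and less RNA per cell cannot be told apart.

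**Figure D1:**
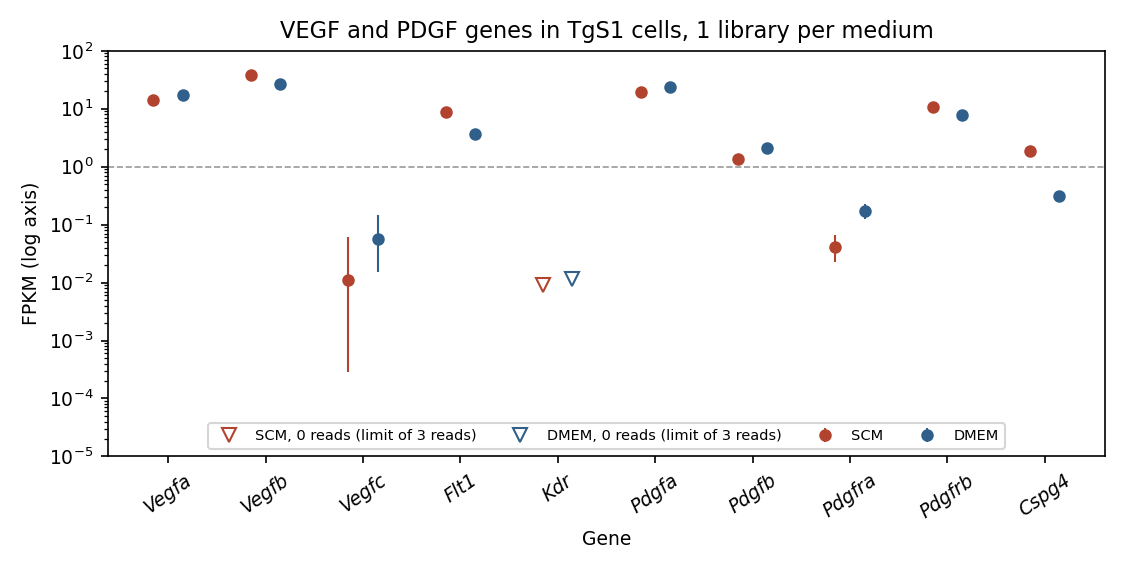
FPKM on a log axis for the 10 genes, with the SCM library on the left of each pair and the DMEM library on the right; bars are 95% Poisson intervals of the read count, the dashed line marks 1 FPKM, and open triangles stand for 0 reads at the level of 3 reads. Flt1 sat at 8.89 FPKM in SCM and 3.71 FPKM in DMEM, and Kdr had no reads in either library.

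The start regions of 4 members are shown because they belong to the 2 genes that were called (Flt1 and Cspg4), to the receptor without reads (Kdr) and to the member with the highest FPKM (Vegfb). They are RefSeq promoter windows on GRCm38.p6, from 250 bases before to 50 bases after the gene start, and 8 of the 10 members matched such a window. Positions are chr5:147725962-147726261 on the minus strand for Flt1, chr5:75978406-75978705 on the minus strand for Kdr, chr9:56864854-56865153 on the plus strand for Cspg4 and chr19:6987602-6987901 on the minus strand for Vegfb. Each is written 5′ to 3′ on the strand of the gene. Capitals mark every match, on either strand, to the motifs searched: the GC box GGGCGG, the TATA box TATAAA, the hypoxia response core ACGTG, the ETS core CCGGAA, the cyclic AMP response element (CRE) half-site TGACG, the full element TGACGTCA, which holds the half-site on both strands, the AP-1 site TGANTCA and the SOX core ACAANG.
Flt1: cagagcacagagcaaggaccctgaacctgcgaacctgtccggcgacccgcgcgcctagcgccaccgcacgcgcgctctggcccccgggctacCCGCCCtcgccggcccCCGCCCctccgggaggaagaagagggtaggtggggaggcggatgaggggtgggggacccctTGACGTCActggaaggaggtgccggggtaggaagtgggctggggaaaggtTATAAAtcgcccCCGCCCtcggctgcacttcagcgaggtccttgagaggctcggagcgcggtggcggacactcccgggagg
Kdr: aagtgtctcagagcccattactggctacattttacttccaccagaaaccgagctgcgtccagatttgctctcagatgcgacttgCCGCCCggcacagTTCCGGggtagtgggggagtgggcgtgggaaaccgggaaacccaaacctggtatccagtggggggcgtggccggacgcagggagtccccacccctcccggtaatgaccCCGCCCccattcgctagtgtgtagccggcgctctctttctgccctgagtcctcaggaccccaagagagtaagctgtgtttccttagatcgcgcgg
Cspg4: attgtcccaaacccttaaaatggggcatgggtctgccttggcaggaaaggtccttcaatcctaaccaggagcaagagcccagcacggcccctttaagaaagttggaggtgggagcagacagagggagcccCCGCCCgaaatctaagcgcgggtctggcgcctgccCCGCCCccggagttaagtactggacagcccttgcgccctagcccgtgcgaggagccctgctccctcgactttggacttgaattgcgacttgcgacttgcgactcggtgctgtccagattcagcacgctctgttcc
Vegfb: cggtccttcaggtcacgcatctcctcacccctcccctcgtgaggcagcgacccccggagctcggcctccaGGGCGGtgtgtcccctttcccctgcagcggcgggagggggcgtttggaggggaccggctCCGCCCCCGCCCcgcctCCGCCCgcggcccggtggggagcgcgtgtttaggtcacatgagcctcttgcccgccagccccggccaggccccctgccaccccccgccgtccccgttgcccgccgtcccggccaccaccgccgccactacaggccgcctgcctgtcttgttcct

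The Flt1 window held a TATA box 31 bases before the start, a full CRE beginning 81 bases before it and 3 GC boxes. Of all 32851 promoter windows of this length, 13.6% held a TATA box, 1.79% a full CRE and 35.7% a GC box. The Kdr window held 2 GC boxes and 1 ETS core, a motif found in 14.9% of windows, and neither a TATA box nor a CRE. The Cspg4 window held 2 GC boxes and the Vegfb window 4. These 4 windows held no ACGTG (19.6% of all windows), no AP-1 site (7.81%) and no SOX core (41.2%). The form GCGTG of the hypoxia response core was not searched, and each of the 4 windows holds it on 1 strand or the other. A lack of ACGTG is therefore not a lack of that core. Among the members' windows not shown, a Vegfa window held ACGTG, and windows of Vegfa, Pdgfa and Pdgfra held a SOX core. Their GC content was 70.7% for Flt1, 60.7% for Kdr, 60.0% for Cspg4 and 75.3% for Vegfb, against a median of 52.7% over all windows. A match is a string of letters and was not tied to binding or to the levels below.

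Among the VEGF ligands, Vegfb (ENSMUSG00000024962), whose product binds FLT1 and neuropilin-1, had 38.3 FPKM (2255 reads, 36.8 to 39.9) in SCM and 26.6 FPKM (1240 reads, 25.1 to 28.1) in DMEM. That is a 1.44-fold higher level in SCM (1.35 to 1.55) and a log2 ratio of 0.51, within the limit of a call. Vegfa (ENSMUSG00000023951), the main angiogenic ligand, had 14.1 FPKM (2223 reads) in SCM and 17.2 FPKM (2147 reads) in DMEM, and was 1.22-fold lower in SCM (1.15 to 1.29). Vegfb and Vegfa therefore stood on different sides of 1, and both counting intervals excluded 1, as did those of 65.5% of all rows measured. Of these rows, 9.44% had a higher log2 ratio than Vegfb and 22.8% a lower one than Vegfa. Vegfb made up 73.0% of the summed FPKM of the 3 VEGF ligands in SCM and 60.6% in DMEM. On lengths of the longest coding transcripts, these shares were 73.2% in SCM and 60.8% in DMEM. Vegfc, which encodes a lymphangiogenic ligand, had 1 read in SCM and 4 reads in DMEM, and its ratio was not determined at this depth (interval 0.00403 to 2.004).

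Of the VEGF receptors, Flt1 (ENSMUSG00000029648) had 8.89 FPKM (4400 reads, 8.63 to 9.15) in SCM and 3.71 FPKM (1457 reads, 3.52 to 3.90) in DMEM. It was 2.40-fold higher in SCM (2.26 to 2.54), with a log2 ratio of 1.07. Of all rows measured, 2.64% had a higher log2 ratio. Kdr (ENSMUSG00000062960) had 0 reads in both libraries, which at 3 reads allows up to 0.00906 FPKM in SCM and 0.0114 FPKM in DMEM. Both receptor genes lie on chromosome 5 on the minus strand, at 147498414 to 147662821 for Flt1 and 76093487 to 76139118 for Kdr in the deposited table; the files name no build for these coordinates. Values are per gene, so the membrane-bound and soluble forms of FLT1 cannot be told apart in them.

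Endothelial cells express both Flt1 and Kdr. Of 8 endothelial markers, 0 were measured, and their highest level was 0.370 FPKM (Vwf in DMEM). The summed level of the 8 was 0.345 FPKM in SCM and 0.617 FPKM in DMEM, and Cdh5, Tie1, Emcn and Cldn5 were at 0 reads in both. The part of such cells in the Flt1 value was not tested.

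Of the PDGF ligands, Pdgfa (ENSMUSG00000025856) had 19.3 FPKM (2203 reads) in SCM and 23.9 FPKM (2171 reads) in DMEM, and was 1.24-fold lower in SCM (1.17 to 1.32). Its exons share 2162 of 3119 bases with the long non-coding RNA 6330403L08Rik on the opposite strand, which had 1263 reads in SCM and 1314 reads in DMEM. Whether reads were counted by strand is not stated in the labels, so reads of these rows cannot be told apart. Pdgfb (ENSMUSG00000000489) was low, at 1.34 FPKM (204 reads) in SCM and 2.06 FPKM (249 reads) in DMEM, or 1.54-fold lower in SCM (1.27 to 1.86). Both PDGF ligands thus had lower levels in SCM, within 2-fold, and Pdgfa made up 93.5% of their summed FPKM in SCM and 92.1% in DMEM.

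Of the PDGF receptors, Pdgfrb (ENSMUSG00000024620) had 10.6 FPKM (2137 reads, 10.2 to 11.1) in SCM and 7.86 FPKM (1253 reads, 7.43 to 8.31) in DMEM, and was 1.35-fold higher in SCM (1.26 to 1.45). Pdgfra (ENSMUSG00000029231) had 15 reads in SCM (0.0408 FPKM) and 50 reads in DMEM (0.171 FPKM). Its plain ratio was 4.20-fold lower in SCM (2.32 to 8.06), at levels far under the filter in both media, where the log2 ratio with the pseudocount was -0.17. The 2 receptor genes therefore differed in opposite directions, from very different levels. Pdgfrb made up 99.6% of the summed FPKM of the pair in SCM and 97.9% in DMEM.

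Cspg4 (ENSMUSG00000032911) encodes NG2, a membrane proteoglycan that binds PDGF-A dimers. It had 1.84 FPKM (804 reads, 1.71 to 1.97) in SCM and 0.314 FPKM (109 reads, 0.258 to 0.379) in DMEM. The plain ratio was 5.85-fold higher in SCM (4.79 to 7.21), the highest ratio of the 9 members with reads, and the log2 ratio with the pseudocount was 1.11. Of all rows measured, 2.41% had a higher log2 ratio. The table lists the gene on chromosome 9, 56772317 to 56807154 on the plus strand. No other row shares exon bases with Cspg4, Flt1, Vegfa, Vegfb, Pdgfb or Pdgfrb.

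**Figure D2:**
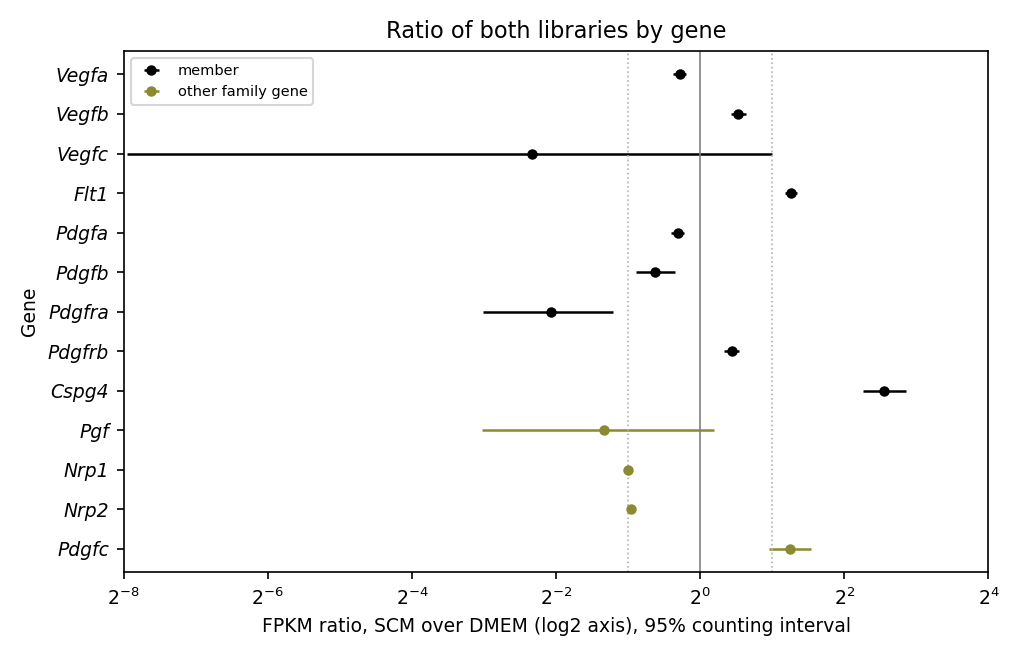
FPKM ratio of SCM over DMEM on a log2 axis for the 9 members with reads (black) and for the related genes with reads in both libraries (olive); bars are 95% Clopper-Pearson intervals of the read counts and dotted lines mark 2-fold in either direction. Flt1, Cspg4 and Pdgfc lie right of 2-fold, and Nrp1 and Nrp2 lie next to the left line. Left of that line lie Pdgfra (15 reads in SCM and 50 in DMEM), Vegfc (1 and 4 reads) and Pgf (6 and 12 reads). The intervals of Vegfc and Pgf hold a ratio of 1.

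NG2, PDGFRB and PDGFRA are also used as markers of other cell types, so those cell types were looked at through other genes. Of 8 markers of pericytes and smooth muscle, 0 were measured, and their summed level was 0.157 FPKM in SCM and 0.147 FPKM in DMEM, with Kcnj8, Abcc9, Notch3 and Higd1b at 0 reads in both. Of 6 fibroblast markers, Col1a2 was measured, at 3.15 FPKM in SCM and 0.742 FPKM in DMEM, 4.24-fold higher in SCM (3.72 to 4.85), and passed the filter through SCM alone. Col1a1 and Lum were at 0 reads in both media, and the summed level of the 6 was 3.22 FPKM in SCM and 0.745 FPKM in DMEM. Of 6 macrophage markers only Cd68 was measured, at 1.45 FPKM in SCM and 1.34 FPKM in DMEM.

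Markers of oligodendrocyte precursors were partly present. Of 5 such genes, 3 were measured, 1 was higher in SCM and 0 were lower, against 3.1% and 2.8% of all rows measured. The transcription factor gene Olig1 had 18.9 FPKM in SCM and 17.3 FPKM in DMEM, and Olig2 had 3.73 FPKM in SCM and 4.62 FPKM in DMEM. Ptprz1, a receptor phosphatase gene, had 6.57 FPKM (3431 reads) in SCM and 0.338 FPKM (140 reads) in DMEM, 19.4-fold higher in SCM (16.4 to 23.2). Ptprz1 passed the filter, as Cspg4 did, through SCM alone, which fixes the direction of both genes. Nkx2-2 was at 0 reads in both libraries and Gpr17 had 2 reads in SCM and 9 reads in DMEM. The summed level of the 5 was 29.2 FPKM in SCM and 22.4 FPKM in DMEM, and the part of such cells in the Cspg4 value was not tested.

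Schwann cell markers were present, as the label of the line says, with 9 of 10 genes measured. Of these 9, 1 was higher in SCM and 0 lower, against 3.1% and 2.8% of all rows measured. The higher gene passed the filter through SCM alone. The log2 ratio was positive for 6 of the 9 and negative for 3, with a median of 0.13. Both genes given here are among those with a negative ratio. The neurotrophin receptor gene Ngfr had 1079 FPKM in SCM and 2061 FPKM in DMEM, and Gap43, a gene of growing axons and immature glia, had 9.63 FPKM in SCM and 17.7 FPKM in DMEM.

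**Figure D3:**
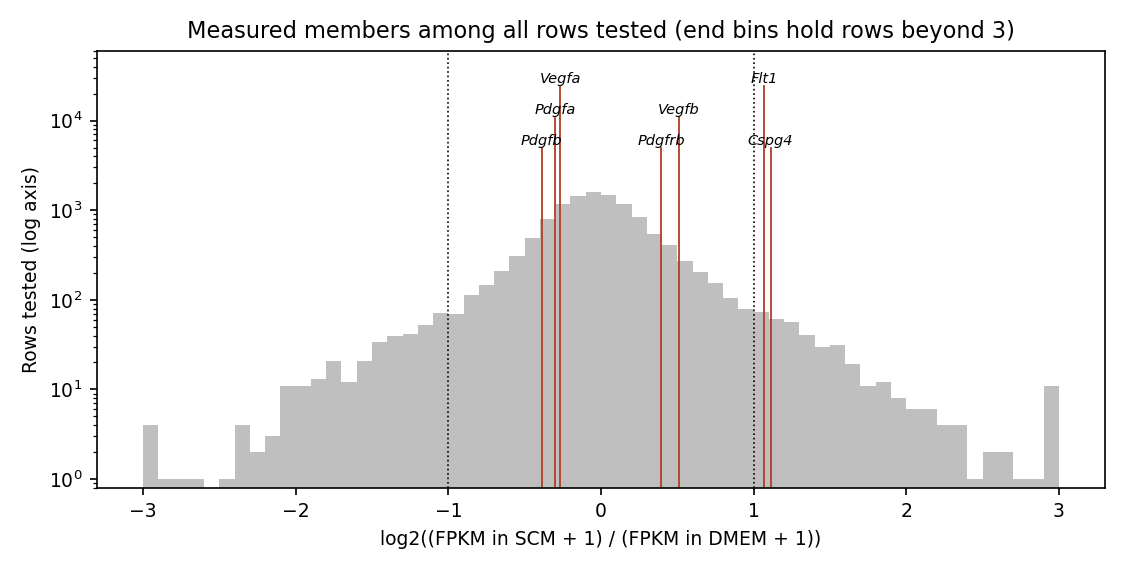
Number of rows (log axis) by log2((FPKM in SCM + 1) / (FPKM in DMEM + 1)) for the 12334 rows measured, with the 7 measured members as red lines and 2-fold as dotted lines; rows beyond 3 in either direction are in the end bins. Pdgfb, Pdgfa and Vegfa lie between -0.39 and -0.27, Pdgfrb and Vegfb at 0.39 and 0.51, and Flt1 and Cspg4 at 1.07 and 1.11.

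The order of levels depended on the gene length used. The length column of the table equals the union of all exons of the gene in the GENCODE M21 annotation for each of the 10 members. For Flt1 that union is 13504 bases, whereas its longest coding transcript has 6895 bases, so its FPKM would understate the level of that transcript. By FPKM the order in SCM was Vegfb, Pdgfa, Vegfa, Pdgfrb, Flt1, Cspg4, Pdgfb, Pdgfra, Vegfc and Kdr. In DMEM it was the same, apart from Pdgfb standing above Cspg4. The Poisson intervals of neighbours overlapped for Pdgfra and Vegfc in both media, and for Vegfc and Kdr in SCM, and spread between cultures is not known. Per kilobase of the longest coding transcript, a scale chosen after the values were seen, Flt1 stood at 17.4 in SCM, above Pdgfrb at 10.7 and beside Vegfa at 17.6. In DMEM, Pdgfa had 36.2 on that scale and Vegfb 33.3, the other way round than by FPKM. The plain ratio of SCM over DMEM for a gene does not depend on the length. The log2 ratio with the pseudocount and the filter do depend on it, and no calls were made on the other length.

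**Figure D4:**
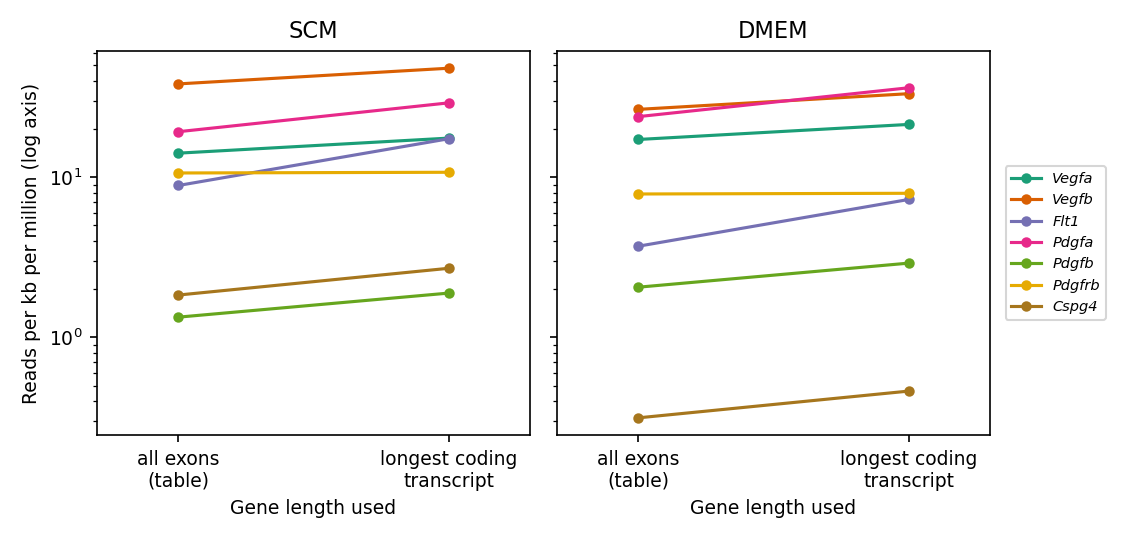
Level per kilobase of gene length on a log axis for the 7 measured members, SCM in the left panel and DMEM in the right, with the table's length (all exons) at the left of each panel and the longest coding transcript at the right. Flt1 crosses Pdgfrb in SCM, at 17.4 and 10.7 on the right, and Pdgfa crosses Vegfb in DMEM.

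Of the 8 other ligands, receptors and co-receptors of both families, 3 were measured, with 0 higher and 0 lower. The neuropilins, co-receptors of VEGF and receptors of class 3 semaphorins, had the highest FPKM of the receptor genes of the families. Nrp1 had 26.9 FPKM (9666 reads) in SCM and 53.8 FPKM (15308 reads) in DMEM, 1.996-fold lower in SCM (1.95 to 2.05), and its log2 ratio of -0.97 was just short of a call. Nrp2 was close to it, at 23.1 FPKM in SCM and 44.7 FPKM in DMEM, 1.94-fold lower in SCM (1.89 to 1.99). Both neuropilins thus differed in the opposite direction to Flt1. The level of Nrp1 was 3.03 times that of Flt1 in SCM and 14.5 times in DMEM, on the FPKM scale. Pdgfc, a ligand of PDGFRA, had 2.12 FPKM (396 reads) in SCM and 0.899 FPKM (133 reads) in DMEM, 2.36-fold higher in SCM (1.94 to 2.90), with a log2 ratio of 0.72, and passed the filter through SCM alone. The FLT1 ligand gene Pgf had 6 reads in SCM and 12 reads in DMEM, Pdgfd had 1 read in SCM and 0 in DMEM, and Vegfd, Flt4 and Pdgfrl had 0 reads in both.

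Of 10 genes that process or activate the ligands, 4 were measured, 2 were higher in SCM and 0 lower. Over all rows measured, 3.1% were higher and 2.8% lower, which is the background for the lists below as well. The median log2 ratio was 0.53 against -0.03 over all rows measured. Of the 4, 2 had a positive log2 ratio and 2 a negative one. Plat, whose protease cleaves the latent PDGF-C dimer, had 14.1 FPKM in SCM and 5.50 FPKM in DMEM, 2.55-fold higher in SCM (2.38 to 2.75). Pcsk6, a proprotein convertase gene, had 2.31 FPKM (439 reads) in SCM and 0.457 FPKM (69 reads) in DMEM. Like Cspg4, it passed the filter through the SCM library alone, so its direction was fixed and the count and median of this list rest in part on it. The convertase gene Furin, which cleaves pro-PDGF and pro-VEGFC, had 16.0 FPKM in SCM and 17.4 FPKM in DMEM, and Pcsk7 had 6.04 FPKM in SCM and 7.91 FPKM in DMEM. Exons of Pcsk7 overlap those of Rnf214 on another strand, and their reads cannot be told apart here.

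Of 13 antagonists and matrix binding proteins, 9 were measured, 1 was higher in SCM and 0 lower, with a median log2 ratio of 0.31. The higher gene was Sparc, a matrix glycoprotein gene whose product binds PDGF-B dimers, at 299 FPKM in SCM and 139 FPKM in DMEM, 2.16-fold higher in SCM (2.12 to 2.20). Sema3f, a semaphorin that acts through neuropilin-2, had 1.21 FPKM (230 reads) in SCM and 0.232 FPKM (35 reads) in DMEM, and passed the filter through SCM alone. Sema3a, which acts through neuropilin-1, had 1.34 FPKM in SCM and 2.31 FPKM in DMEM, and Sema3c had 1.36 FPKM in SCM and 2.50 FPKM in DMEM. The 3 semaphorins therefore differed in direction, and none passed the limit of a call.

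All 30 genes of receptor signalling were measured, with 2 higher in SCM, 0 lower and a median log2 ratio of -0.02. Pik3r1, which encodes the p85 alpha regulatory subunit of phosphoinositide 3-kinase that docks on activated PDGF receptors, had 42.7 FPKM (15791 reads) in SCM and 10.7 FPKM (3139 reads) in DMEM. It was 3.99-fold higher in SCM (3.84 to 4.15). Ptprj, a receptor phosphatase that acts on PDGFRB and KDR, had 11.1 FPKM in SCM and 3.97 FPKM in DMEM, 2.79-fold higher in SCM (2.60 to 3.002). The adaptor gene Grb2 had 31.9 FPKM in SCM and 45.2 FPKM in DMEM, and Ptk2, the focal adhesion kinase gene, had 8.08 FPKM in SCM and 11.2 FPKM in DMEM.

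Vegfa is a classic target of the hypoxia-inducible factors and of ATF4, which drives the response to amino acid shortage. Of 12 regulators of VEGFA, 11 were measured, 0 were higher and 1 was lower in SCM, with a median log2 ratio of -0.09. The lower gene was Atf4, at 17.3 FPKM (1496 reads) in SCM and 86.1 FPKM (5903 reads) in DMEM, 4.97-fold lower in SCM (4.70 to 5.27). Vegfa was 1.22-fold lower in SCM, and 22.8% of all rows measured had a lower log2 ratio than Vegfa. A link between the levels of Atf4 and Vegfa was not tested. Egln1, an oxygen-sensing prolyl hydroxylase gene, had 14.7 FPKM in SCM and 9.61 FPKM in DMEM, and the related Egln2 had 11.4 FPKM in SCM and 14.3 FPKM in DMEM. Epas1, which encodes HIF-2 alpha, had 19.9 FPKM in SCM and 23.3 FPKM in DMEM. Hif1a, named here after its value was seen, had 59.1 FPKM in SCM and 66.5 FPKM in DMEM.

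Of 18 hypoxia-induced genes, 16 were measured, 1 was higher in SCM and 0 lower, with a median log2 ratio of -0.01. The higher gene was Pdk1, the pyruvate dehydrogenase kinase gene, at 2.29 FPKM (653 reads) in SCM and 0.464 FPKM (105 reads) in DMEM. Adm, the adrenomedullin gene, had 1.85 FPKM in SCM and 0.552 FPKM in DMEM, and the stress gene Ddit4 had 43.4 FPKM in SCM and 23.6 FPKM in DMEM. Pdk1 and Adm passed the filter through SCM alone, which fixes their direction. Vldlr, a lipoprotein receptor gene, had 2.87 FPKM in SCM and 6.32 FPKM in DMEM, with a log2 ratio of -0.92. These genes thus differed in both directions, and Vegfa lay within 2-fold. In the 5 pathway lists together, 6 of 70 measured genes were higher in SCM and 1 lower. Over all rows measured, under the same filter, 3.1% were higher and 2.8% lower. Of the 6, Pcsk6 and Pdk1 had their direction fixed by the filter, and the 4 others were above 1 FPKM in both libraries. The lists were chosen with earlier results known, so nothing is concluded from the count.

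**Figure D5:**
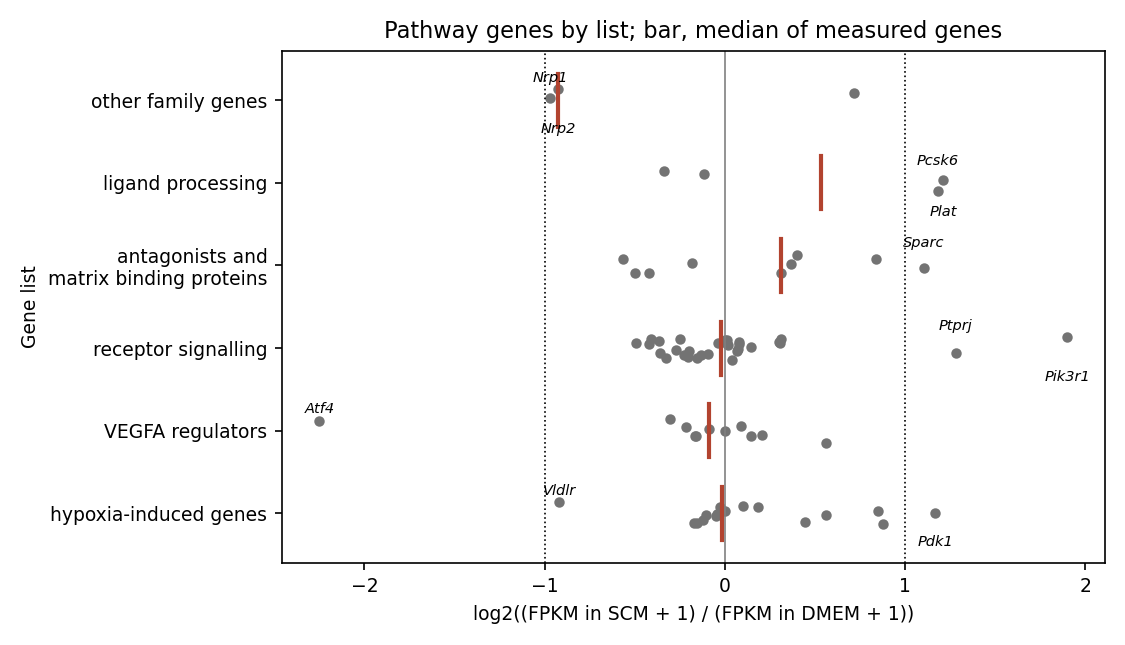
Log2((FPKM in SCM + 1) / (FPKM in DMEM + 1)) of the measured genes of each list, as grey points with vertical scatter for legibility; red bars are list medians and dotted lines mark 2-fold. The medians run from -0.93 for the other family genes (3 genes) to 0.53 for ligand processing (4 genes), and Atf4 lies farthest from 0 at -2.25.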

How the data were processed

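The 2 libraries were stranded total RNA libraries, made with a SMARTer kit and converted for DNBSEQ, as the labels' protocols state. Per the submitters' processing notes, featureCounts 2.0.1, STAR 2.7.9a, cutadapt 3.1, Trimmomatic 0.39 and Trim Galore were used, with the builds GRCm38.p6 and mm10. Their roles, parameters and strand setting are not given in the sources read. The authors deposited FPKM values, and each library's FPKM, multiplied by length in kilobases, added up to 1000000. These products came in steps of equal size, which gave the reads behind them, and 100% of values lay within 0.01 of a whole read. The mapping of columns to media rests on the name of the medium in the column. The column names also carry a number, 3 for SCM and 1 for DMEM, and the labels do not say which cultures these mark.

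All 55323 rows were processed together in Python 3.11.15 with scipy 1.17.1. With 1 library per medium no model was fitted and no test was made. The pseudocount was 1 FPKM, the filter 1 FPKM in at least 1 library, and the floor for 0 reads 3 reads. In the deposited table the spans of the 10 members equal those in GENCODE M21 on GRCm38, whereas their positions differ, so the build of the table's coordinates is not settled. Promoter positions are those of RefSeq on GRCm38.p6, and are not tied to the table's. The steps were checked on simulated reads with known ratios.

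The members, the 12 gene lists and the settings were chosen with earlier results of these data known. Named genes are the members, all other family genes and, of each list, up to 4 measured genes with the largest absolute log2 ratio. For 2 genes that this rule names, the values are not reported here. For the hypoxia list, 2 symbols were changed to the names in the table (Car9 and Ero1a). No gene was chosen by likeness of pattern, since 2 libraries give 1 difference per gene. Alternatives changed the pseudocount, filter, unit, scaling, rows, fold limit and use of the interval.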

Additional observations from a re-analysis of the deposited data

How the results depend on the processing

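The 7 measured members kept the sign of their log2 ratio under every alternative that gave a value. A change of pseudocount or filter cannot alter a sign, so only the changes of unit and scaling could have done so. The numbers of calls depended on the pseudocount, the filter and the unit. In the main setting, 382 of 12334 rows were higher in SCM and 345 lower. The pseudocounts and the fold limit kept these 12334 rows, whereas the filter, the unit and the choice of rows changed them. With a pseudocount of 0.1 FPKM, 681 of all rows were higher in SCM and 625 lower, 1 other family gene was higher (Pdgfc) and 2 pathway genes were lower (Atf4 and Vldlr). With a pseudocount of 3 FPKM, 148 rows were higher and 131 lower, and 0 members were called, with Flt1 at 0.83 and Cspg4 at 0.55. With a filter of 5 FPKM, 210 of 6979 rows were higher and 165 lower, and 1 of 5 members was higher (Flt1), since Cspg4 did not reach the filter. In TPM, with the filter at 1 TPM, 1011 of 16603 rows were higher and 1145 lower. Both neuropilins were lower in TPM (2 of 3 other family genes), and 2 of 73 pathway genes were lower. Among the 10081 protein-coding rows alone, 250 were higher and 145 lower. With a limit of 1.5-fold, 974 rows were higher and 928 lower, Pdgfc was higher (1 other family gene), both neuropilins were lower (2), and 2 pathway genes were lower. The 6 pathway genes called higher became 8 with a pseudocount of 0.1 FPKM and in TPM (Adm and Sema3f added), 4 with a pseudocount of 3 FPKM and with a filter of 5 FPKM (without Pcsk6 and Pdk1), and 9 at 1.5-fold (Adm, Sema3f and Ddit4 added). These shifts follow from how each setting is built. Per kilobase of the longest coding transcript, added after seeing the data, the log2 ratio of the levels of Vegfb over Pdgfa in DMEM was -0.12 instead of 0.15, and that of Flt1 over Pdgfrb in SCM was 0.70 instead of -0.26, since the length in the table exceeds the longest coding transcript by more in Flt1 and Pdgfa. No paired analysis was possible because there was 1 library per medium, and for the same reason no replicate could be left out. Depth limits the values of Vegfc, Pdgfra and Kdr, which had 0 to 50 reads.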
